A study of Mus musculus with 4 samples.

Results

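The 9 genes described here are the uroplakins Upk1a, Upk1b, Upk2 and Upk3a, the small proline-rich genes Sprr1a and Sprr2f, the keratin gene Krt19, and the Ly6 family genes Ly6d and Psca. They are 9 of the 20672 genes counted in 4 single-cell RNA libraries of mouse kidney. The genes were chosen by their levels in the urothelium-like and collecting duct cells of these same libraries and by the Sprr1a level at birth, so their differences between those classes and ages are given as descriptions. The libraries came from an embryonic kidney transplant, from kidneys of embryonic days 15.5 and 17.5, and from newborn kidneys at postnatal day 0, called transplant, E15.5, E17.5 and P0. Each group is 1 library, made with the 10x Chromium 3′ kit (v2), which counts unique molecular identifiers (UMIs), 1 for each captured RNA molecule. How many animals each library pooled is not given in the sources used here.

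The transplant library holds E12.5 kidneys of strain C57BL/6N that had been placed in the fat beside the epididymis of a host and kept there for 12 days. The labels disagree on the host: the design text names an immunodeficient NOD mouse, and the sample record the strain C57BL/6N. The E15.5 and P0 kidneys were of strain ICR and the E17.5 kidneys of strain C57BL/6. All 4 libraries are labelled wild type, but 8181 UMIs of the tdTomato reporter were counted in the P0 library and 0 in the others. Strain, age and site of growth differ together between several of these libraries, so their effects cannot be told apart.

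Uroplakins are the membrane proteins of urothelium, the lining of the renal pelvis, ureter and bladder. The products of Upk1a and Upk2 form one pair and those of Upk1b and Upk3a the other, and the pairs assemble into the rigid plaques of the apical membrane of umbrella cells. Sprr proteins are precursors of the cornified envelope, the cross-linked protein shell under the membrane of squamous cells, and several are induced in stressed or injured epithelia. Krt19 is a keratin of simple epithelia and ducts. Ly6d and Psca encode small surface proteins held by a lipid anchor; Ly6d is also a marker of lymphoid precursors, and Psca was first known from prostate. The collecting duct and the ureter both grow from the ureteric bud, and the urothelium of the renal pelvis lies next to the collecting duct.

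On GRCm38 the uroplakin genes lie apart, Upk1a at chr7:30603092-30612847 on the minus strand, Upk1b at chr16:38773184-38800328 (minus), Upk2 at chr9:44452715-44454976 (minus) and Upk3a at chr15:85017141-85022547 (plus). Sprr1a at chr3:92483952-92485895 (minus) and Sprr2f at chr3:92365187-92366442 (plus) are neighbours within the small proline-rich gene cluster. Krt19 lies at chr11:100140810-100148665 (minus). Ly6d at chr15:74762056-74763620 (minus) and Psca at chr15:74714839-74717069 (plus) share a Ly6 gene cluster.

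Sprr2f was higher in collecting duct cells than in all other cells pooled in all 4 libraries, and Sprr1a by 2-fold only at P0. Upk3a was the uroplakin also found in collecting duct-gated cells at E15.5. The 200 bases before the RefSeq gene start are shown for these genes. They are written 5′ to 3′ along the gene on GRCm38.p6, and capitals mark matches to TGANTCA, the letters bound by AP-1, the dimer of Fos and Jun proteins.
Sprr1a: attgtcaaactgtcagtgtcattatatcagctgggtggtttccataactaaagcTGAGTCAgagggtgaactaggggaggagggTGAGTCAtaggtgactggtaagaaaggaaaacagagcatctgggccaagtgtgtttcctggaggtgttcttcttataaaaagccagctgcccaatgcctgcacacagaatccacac
Sprr2f: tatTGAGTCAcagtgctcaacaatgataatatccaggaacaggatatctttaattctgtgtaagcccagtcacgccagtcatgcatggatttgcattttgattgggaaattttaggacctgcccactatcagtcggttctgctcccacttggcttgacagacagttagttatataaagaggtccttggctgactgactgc
Upk3a: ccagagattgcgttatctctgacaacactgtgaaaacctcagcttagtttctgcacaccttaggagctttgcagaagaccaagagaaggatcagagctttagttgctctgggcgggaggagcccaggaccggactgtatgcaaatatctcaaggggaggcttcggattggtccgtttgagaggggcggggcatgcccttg
The windows are chr3:92485882-92486081 on the minus strand, chr3:92364987-92365186 on the plus strand and chr15:85016941-85017140 on the plus strand. Sprr1a holds AP-1 matches starting 146 and 116 bases before the start, Sprr2f 1 match at 197 bases, and Upk3a none. Of 27025 such windows over all genes, 5.55% hold a match on either strand. The other motifs searched on both strands were CACCC (KLF), AACCNGTT (GRHL), AGGTCA (a PPAR half-site), CCGGAA (ELF/ETS) and TGTTTAC (FOXA). Sprr1a holds 3 CACCC matches on the opposite strand, at 168, 137 and 119 bases, and 44.9% of all windows hold at least 1. No match of the other 4 lies in these windows or in that of Upk1a, against 1.39%, 11.2%, 10.9% and 2.44% of all windows. These matches are letters in a window and not evidence of binding.

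The libraries hold 7670 (transplant), 4158 (E15.5), 5551 (E17.5) and 10810 (P0) barcodes, with 42430540 to 99068204 UMIs each. After filters on detected genes, mitochondrial UMIs and doublets, 21695 cells were used, with a median of 22585 UMIs a cell at E15.5 and of 6276.5 to 9885.5 in the other 3 libraries. Pairs of libraries share 19 to 60 barcodes, at most 1.05% of the smaller library. Cells were put in a class (gated) by 3 or more markers of that class, none of them a member. The collecting duct gate took 307, 140, 281 and 389 cells of the transplant, E15.5, E17.5 and P0 libraries. A further 112 cells lay just below its cut and were left ungated. The urothelium gate took 48 cells. They were 0 of 6268 in the transplant (0%, 0 to 0.0588), 20 from E15.5 (0.578%, 0.353 to 0.891), 12 from E17.5 (0.273%, 0.141 to 0.476) and 16 from P0 (0.211%, 0.121 to 0.343). Levels below are counts-per-million values (CPM), the UMIs of a gene summed over a class and scaled by all UMIs of that class. Intervals are exact 95% intervals that cover counting error only, so variation between animals is not measured and no test was possible.

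Pooled within each library, the urothelium-gated cells had UMIs of 8 or 9 of the 9 urothelium markers. The transcription factor genes Trp63, Foxa1 and Grhl3 were among them. The median cell held 6, 5 and 6 of the 9 at E15.5, E17.5 and P0. These markers set the gate, so their presence follows largely from it and does not support the name. The markers of other classes given below also enter the gating, so low levels of them are in part selected. Aqp2, the water channel gene of principal cells, was at 0 in these cells at E15.5 and E17.5, and had 2 UMIs at P0. Most other collecting duct markers were found: 11, 8 and 9 of the 12 had a UMI at E15.5, E17.5 and P0. Hsd11b2, Wnt9b and Calb1 were at 0 at E17.5 and P0. At E15.5 these cells held a median of 6 of 9 urothelium and 6.5 of 12 collecting duct markers. Of 6 skin keratinocyte markers, Krt77, Dsg1a, Dsc1 and Calm4 were at 0 in all 3 libraries. Krt1 and Krt10 were found, and the list summed to 50.15, 42.55 and 27.04 CPM at E15.5, E17.5 and P0. In collecting duct-gated cells the same list summed to 41.59, 46.09 and 31.61 CPM. All 6 epididymis markers were at 0 in the urothelium-gated cells. Mesothelium markers summed to 122.6, 602.8 and 129.8 CPM at E15.5, E17.5 and P0, with Muc16 at 0, and Upk3b, itself a uroplakin gene, made up 58.5, 539 and 70.3 CPM of these sums. The collecting duct gate was less uniform. In an unsupervised clustering, 135 of the 307 transplant cells lay in clusters named distal tubule, 83 in clusters named intercalated and 79 in clusters named collecting duct, and 53 of the 140 E15.5 cells lay in the cluster named urothelium.

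Most uroplakin, Ly6d and Psca UMIs of the series lay in the 48 urothelium-gated cells. These cells held 85.7% of all Upk1b UMIs, 86.4% of Upk2, 73.1% of Upk3a, 66.4% of Ly6d and 63.4% of Psca. Upk1a was divided, with 39.4% in urothelium-gated and 22.6% in loop of Henle-gated cells. Sprr1a was shared almost equally, with 32.6% in urothelium-gated and 30.6% in collecting duct-gated cells, and Krt19 had 21.7% and 32.2%. Sprr2f went the other way, with 0.651% in urothelium-gated and 76.6% in collecting duct-gated cells. Endothelium-gated cells, which should lack all 9 genes, held 0.348% to 1.8% of a member's UMIs.

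**Figure D1:**
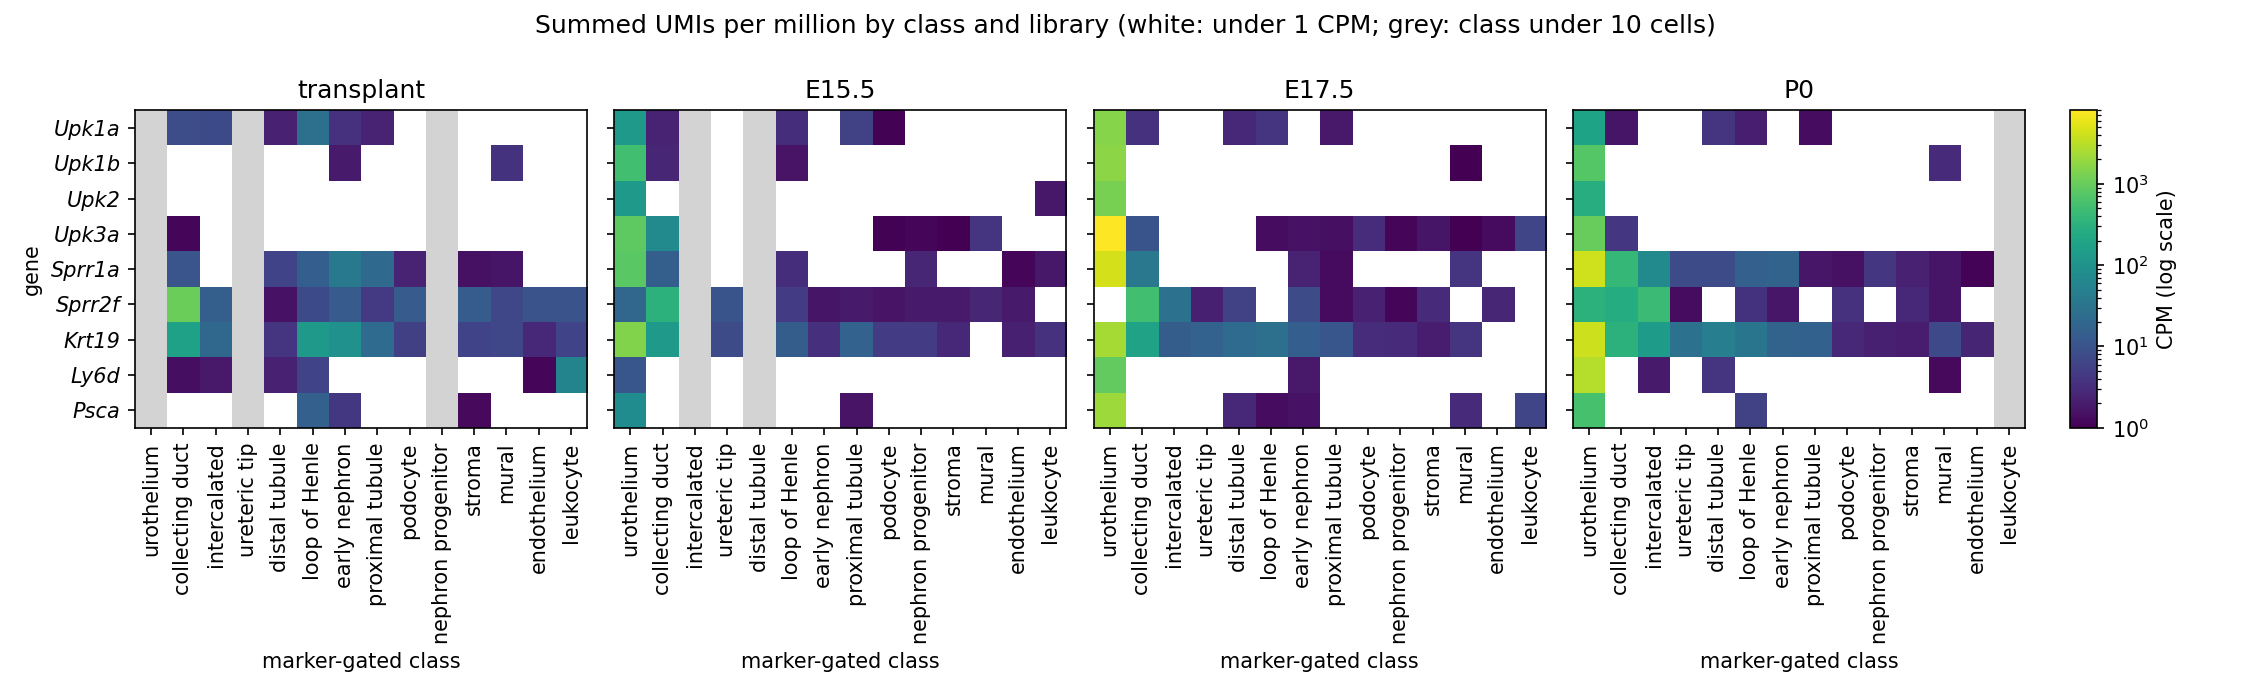
Levels of the 9 members (CPM, log scale) in each marker-gated class and library, with classes below the minimum number of cells left out. The uroplakins, Ly6d and Psca peak in the urothelium gate. Sprr2f is highest in the collecting duct gate in the transplant (1047 CPM), at E15.5 and at E17.5. At P0 the intercalated and urothelium gates stand above it for Sprr2f, each from few cells. Upk1a has a second place in the loop of Henle gate of the transplant, at 27.4 CPM.

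Within a library, nearly every member was higher in urothelium-gated than in collecting duct-gated cells, and Sprr2f was the exception at E15.5 and E17.5. With a ratio given where both sides together had at least 20 UMIs, 7 of 8 members were at least 2-fold higher at E15.5 and 1 at least 2-fold lower, against 6.97% and 13.6% of all genes with enough UMIs. At E17.5, 8 of 9 members were higher and 1 lower, against 14.2% and 15.5%, and at P0 8 of 9 were higher and 0 lower, against 15.7% and 16.1%. The median log2 ratio of the members was 5.74 at E15.5, then 9.61 at E17.5 and 7.93 at P0, against -0.04, -0.03 and -0.01 over all genes. The members were chosen partly for this difference, so nothing is read from these counts. The number higher was 5 at P0 without the cell with the most UMIs of each gene on each side, or with a mitochondrial limit of 10%, and 3 at E15.5 with classes from clusters.

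In urothelium-gated cells, Upk3a had 871, 7957 and 1000 CPM at E15.5, E17.5 and P0, against 71.8, 10.2 and 4.10 CPM in collecting duct-gated cells. The ratio was therefore smallest at E15.5, at 12.1 (10.6 to 13.9), and reached 783 (539 to 1184) at E17.5 and 244 (148 to 428) at P0. Its partner Upk1b had 531, 1659 and 735 CPM in urothelium-gated cells, against 2.59 CPM at E15.5, 0 UMIs at E17.5 and 2 UMIs at P0 in collecting duct-gated cells. Upk1b was thus 205-fold higher (116 to 401) at E15.5, at least 1524-fold higher at E17.5, taking the collecting duct at the floor of 3 UMIs, and 1524-fold higher at P0 with an interval of 414 to 12710.

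The second pair also had its highest level at E17.5. Upk1a had 128, 1589 and 184 CPM in urothelium-gated cells of E15.5, E17.5 and P0, against 2.37, 3.63 and 1.69 CPM in collecting duct-gated cells, ratios of 54.1 (28.9 to 112), 438 (234 to 925) and 109 (47.5 to 291). Upk2 had 125, 1255 and 270 CPM in urothelium-gated cells, against 2, 0 and 1 UMIs in the collecting duct-gated cells. All 4 uroplakins had their highest level in the 12 cells of E17.5. For Upk1a and Upk3a the P0 and E15.5 intervals overlapped (127 to 257 and 103 to 157 CPM for Upk1a, 861 to 1155 and 804 to 942 CPM for Upk3a), while those of Upk1b and Upk2 did not. Set over E15.5, the uroplakin levels at E17.5 were 12.4-fold (Upk1a), 3.13-fold (Upk1b), 10.0-fold (Upk2) and 9.14-fold (Upk3a) higher, and those at P0 1.44-, 1.39-, 2.16- and 1.15-fold. The P0 values for Upk1a, Upk2 and Upk3a depend on 1 P0 cell, without which all 3 were lower at P0 than at E15.5.

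Uroplakins were found together in single cells. Of the 17 cells at E15.5 with UMIs of at least 3 uroplakins, 16 were urothelium-gated, and so were 9 of 9 at E17.5 and 7 of 7 at P0. The transplant had 1 such cell, outside the gate. All 4 genes were found in 10 of the 20 gated cells at E15.5, in 9 of 12 at E17.5 and in 2 of 16 at P0. Thinned to 3000 UMIs a cell, so that the deeper E15.5 cells are on the same footing, at least 3 uroplakins were found in 5, 9 and 3 cells of the 3 ages, all gated.

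The gated cells differed widely among themselves. Summed over the 4 uroplakins, the median cell had 10.94 UMIs per 10000 at E15.5 (2.79 to 65.35), 134.4 at E17.5 (1.66 to 188.9) and 12.08 at P0 (6.60 to 225.5). At P0 a single cell, without Krt5 and without Ly6d, held 33 of the 34 Upk1a UMIs, 41 of 50 of Upk2, 79 of 185 of Upk3a and 92 of 108 of Psca. Without it the P0 levels were 5.65 CPM for Upk1a, 50.8 for Upk2, 599 for Upk3a and 90.4 for Psca, against 128, 125, 871 and 79.4 CPM at E15.5, while Upk1b had 627 CPM and Ly6d 3033 CPM. Leaving that cell out was chosen after seeing the data.

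**Figure D2:**
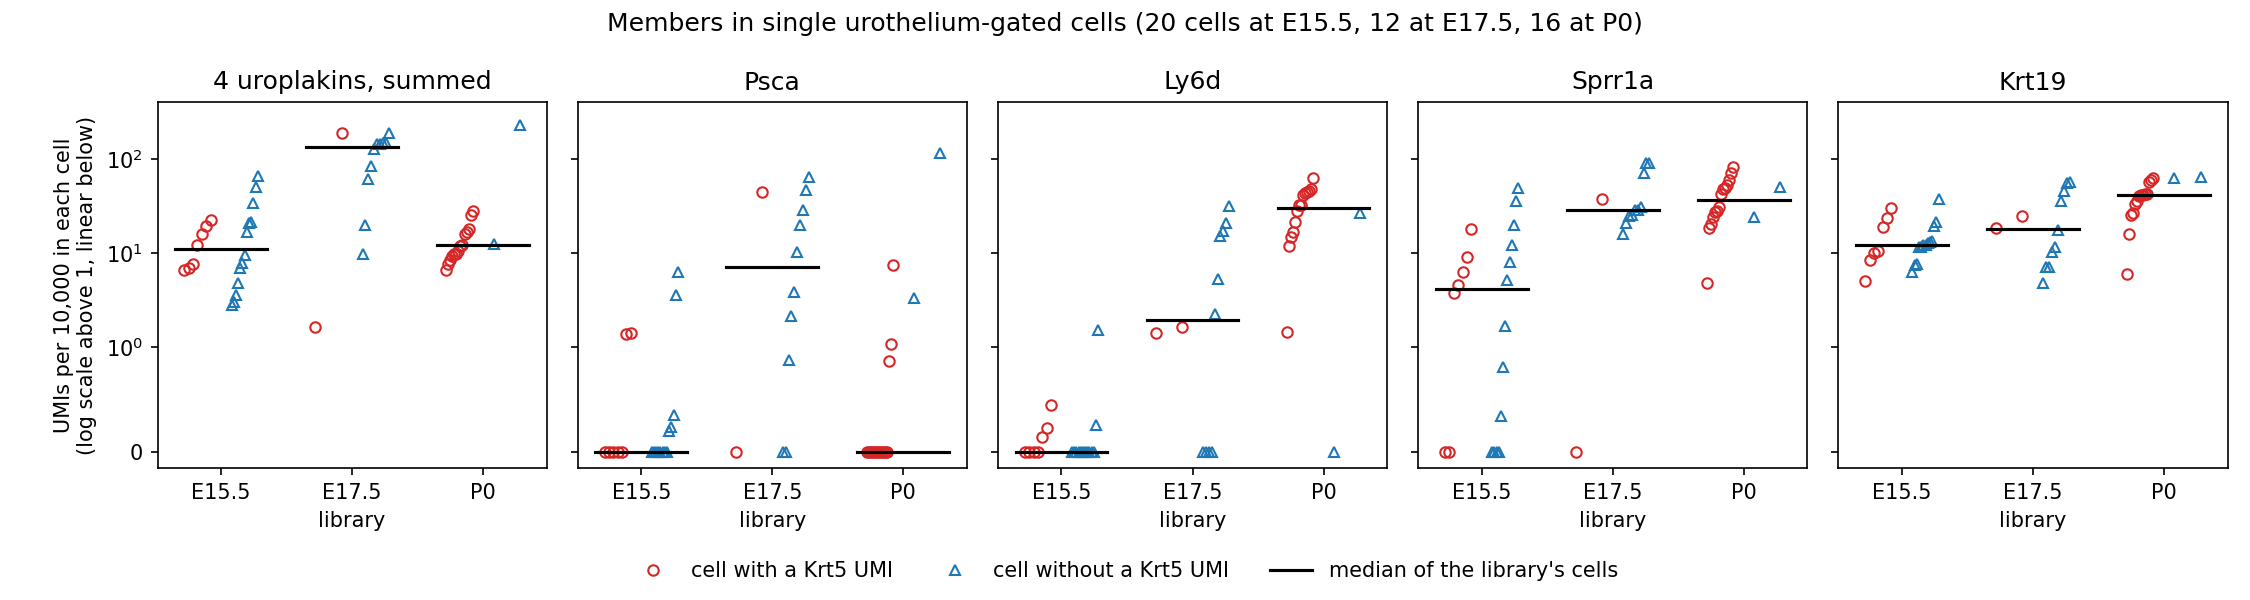
Each point is 1 urothelium-gated cell at E15.5, E17.5 or P0, with its uroplakin, Ly6d, Psca, Krt19 and Sprr1a UMIs per 10000 UMIs of the cell. The E17.5 cells have the highest uroplakin median (134.4) and the P0 cells the highest Ly6d median (30.29).

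Between the ages, the P0 over E15.5 ratio in urothelium-gated cells was larger for Ly6d than for the uroplakins. Ly6d had 11.1, 929 and 2904 CPM in urothelium-gated cells of E15.5, E17.5 and P0, against 0, 0 and 4 UMIs in collecting duct-gated cells. P0 was 261-fold above E15.5 (131 to 607) and E17.5 83.4-fold above E15.5 (41.1 to 197). Both comparisons share the E15.5 library, and the median of all genes in urothelium-gated cells stood at -0.41 for P0 and -0.20 for E17.5 on the log2 scale. Ly6d UMIs were in 5 of 20 cells at E15.5, 8 of 12 at E17.5 and 15 of 16 at P0, and after thinning in 1, 4 and 14. The keratin gene Krt5, a basal cell marker that is part of the urothelium gate, was found in 7 of 20 cells at E15.5, 2 of 12 at E17.5 and 14 of 16 at P0. Without doublet removal, Krt5 was found in 7 of 21, 11 of 24 and 28 of 40 gated cells. Of the 12 E17.5 cells removed as doublets, 9 had a Krt5 UMI, so the low count at E17.5 depends on that filter. Among the kept cells, the Krt5-positive P0 cells had a median of 32.61 Ly6d UMIs per 10000, and the Krt5-positive E15.5 cells had a median of 0. Stress genes moved with age as well: in urothelium-gated cells the dissociation stress list summed to 2591, 11970 and 13300 CPM and the injury list to 5907, 17300 and 11480 CPM over the 3 ages. Their part in the age differences of the members was not tested.

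Psca, like the 4 uroplakins, had its highest level at E17.5. It had 79.4, 2135 and 584 CPM in urothelium-gated cells of E15.5, E17.5 and P0, against 1, 0 and 1 UMIs in collecting duct-gated cells. Its UMIs lay in 7 of 20 cells at E15.5, 9 of 12 at E17.5 and 5 of 16 at P0. The largest share from 1 cell was 92 of 108 UMIs at P0, so the P0 level describes mainly that cell.

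Krt19 UMIs were in all 48 urothelium-gated cells, and Sprr1a UMIs in 14 of 20 at E15.5, 11 of 12 at E17.5 and 16 of 16 at P0, and neither gene was restricted to them. Krt19 had 1460, 2369 and 4050 CPM in urothelium-gated cells of E15.5, E17.5 and P0, against 126.5, 175 and 324 CPM in collecting duct-gated cells, so that the ratio was nearly the same at all ages, 11.5 (10.4 to 12.8), 13.6 (11.8 to 15.6) and 12.51 (11.4 to 13.7). Sprr1a had 802, 4475 and 4115 CPM in urothelium-gated cells, against 15.3, 36.7 and 393 CPM in collecting duct-gated cells. The E17.5 and P0 intervals for urothelium-gated cells overlapped (4133 to 4838 and 3828 to 4418 CPM), whereas the ratio to the collecting duct was 52.4 (40.9 to 68.1) at E15.5, 122 (98.8 to 152) at E17.5 and 10.5 (9.60 to 11.4) at P0. With classes taken from clusters in place of markers, Upk3a, Sprr1a and Krt19 at E15.5 were lower in urothelium than in collecting duct, a setting in which 53 collecting duct-gated and 87 tip-gated cells lay in the cluster named urothelium.

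Sprr2f was the member that stood low in the urothelium. It had 19.5 CPM (14 UMIs) at E15.5, 0 UMIs at E17.5 and 319 CPM at P0 in urothelium-gated cells, against 317, 520 and 265.5 CPM in collecting duct-gated cells. At E15.5 it was 16.3-fold lower (9.67 to 29.9) in urothelium-gated cells and at E17.5 at least 24.4-fold lower. At P0 the ratio was 1.20 (0.909 to 1.56), but 57 of the 59 UMIs lay in 1 cell, and without the cell with the most UMIs on each side the log2 ratio was -4.29. Reads of Sprr2f may be shared with near-identical Sprr2 genes, and how such reads were treated is not given in the sources used here.

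Doublet removal took many of the gated cells. Without it, a setting added after seeing the data for these levels, the gate took 4 transplant cells, 21 cells of E15.5, 24 of E17.5 and 40 of P0. The 4 transplant cells held 3193 CPM of Sprr1a, 2444 of Krt19 and 444 each of Upk1b, Upk3a and Ly6d, with 0 UMIs of Upk1a, Upk2 and Psca. With the removed cells, E17.5 had 4634 CPM of Upk3a in place of 7957, and the removed E17.5 cells alone had 534. At P0 the removed cells alone had 809 CPM of Upk3a, nearer to the 1000 CPM of the kept cells, but 705 CPM of Ly6d and 4.15 CPM of Psca. With them, P0 had 1659 CPM of Ly6d in place of 2904, 256 of Psca in place of 584 and 86.9 of Upk1a in place of 184, the last below the 117 CPM of E15.5 in the same setting. Whether the removed cells are doublets was not tested.

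Other genes of the urothelial and squamous programmes were read from lists of related genes, by the same rule of 20 UMIs. Both other uroplakin genes were higher in urothelium-gated than in collecting duct-gated cells where they could be compared: Upk3b, a uroplakin of urothelium and mesothelium, was 15.1-fold higher (8.50 to 27.8) at E15.5, 99.01-fold (56.4 to 185.5) at E17.5 and 20.8-fold (9.01 to 47.7) at P0. Of 13 other small proline-rich genes, 1 reached 20 UMIs, Sprr2a3 at E15.5, with 18 against 4 UMIs. Of 15 other cornified envelope genes, 4 of 4, 3 of 3 and 3 of 5 with enough UMIs were at least 2-fold higher at E15.5, E17.5 and P0, with medians of 2.53, 1.67 and 1.27 on the log2 scale, where 6.97%, 14.2% and 15.7% of all genes were that much higher. Ivl, the envelope precursor involucrin, had 346 CPM in urothelium-gated and 1.69 CPM in collecting duct-gated cells at P0.

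The regulators were mixed. Of 14 urothelial and squamous regulators, 6 of 13, 3 of 10 and 4 of 11 were at least 2-fold higher in urothelium-gated cells and 2, 1 and 0 at least 2-fold lower, beside the same shares of all genes higher and 13.6%, 15.5% and 16.1% lower. Trp63, Foxa1 and Grhl3 of this list are markers of the urothelium gate. The gate itself favours them, so these counts are not independent of it and nothing is read from them. Pparg, a nuclear receptor needed for urothelial differentiation, was 69.8-fold higher at E17.5 (29.4 to 191) and 116-fold at P0 (47.6 to 339), while Gata3, a factor of the ureteric bud lineage and a collecting duct marker of the gate, was at 0.492 of the collecting duct level at E15.5 (0.426 to 0.566). Rab27b, a GTPase that carries uroplakin vesicles to the apical membrane, was 52.4-fold higher at E15.5 (32.0 to 91.0), 125-fold at E17.5 (67.8 to 253) and 35.7-fold at P0 (20.3 to 63.8). Cldn8, a tight junction gene of the collecting duct, was 0.495 of the collecting duct level at E15.5 and 0.128 at P0, and 1.003 at E17.5. Among keratins, the basal keratin gene Krt14 had 22 UMIs at E15.5 and 58 at P0 in urothelium-gated cells, against 0 in collecting duct-gated cells at both ages.

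In every library, Sprr2f and Krt19 were at least 2-fold higher in collecting duct-gated cells than in all other cells pooled. Of the members with enough UMIs, 2 of 7 in the transplant, 3 of 8 at E15.5, 2 of 9 at E17.5 and 3 of 9 at P0 were at least 2-fold higher than in all other cells of the library, against 8.51%, 12.8%, 9.1% and 9.49% of all genes. These members were Sprr2f and Krt19 in all 4, Upk3a at E15.5 and Sprr1a at P0. All other cells include the urothelium-gated cells, which hold most UMIs of the uroplakins, Ly6d and Psca.

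Sprr2f had 1047, 317, 520 and 265.5 CPM in collecting duct-gated cells of the transplant, E15.5, E17.5 and P0, against 18.9, 5.64, 3.53 and 13.5 CPM in all other cells. The ratios were 55.4 (51.6 to 59.5), 56.3 (50.7 to 62.7), 147 (123 to 178) and 19.7 (18.1 to 21.4). Sprr2f was not in every duct cell: 29.0%, 47.9%, 34.5% and 21.1% of them had a UMI, and 21.9%, 26.1%, 26.6% and 14.7% after thinning, against 3.86%, 0.483%, 0.983% and 0.245% of thinned endothelium-gated cells. At P0 intercalated-gated cells had 454 CPM, but the 240 UMIs lay in 5 of 51 cells.

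Krt19 was found in more duct cells than Sprr2f, with UMIs in 50.2%, 64.3%, 64.4% and 68.9% of the collecting duct-gated cells of the transplant, E15.5, E17.5 and P0. Its CPM of 172, 126.5, 175 and 324 stood against 42.2, 18.5, 20.8 and 28.0 CPM in all other cells, ratios of 4.08 (3.75 to 4.44), 6.83 (6.20 to 7.52), 8.41 (7.49 to 9.45) and 11.5 (10.8 to 12.4).

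**Figure D3:**
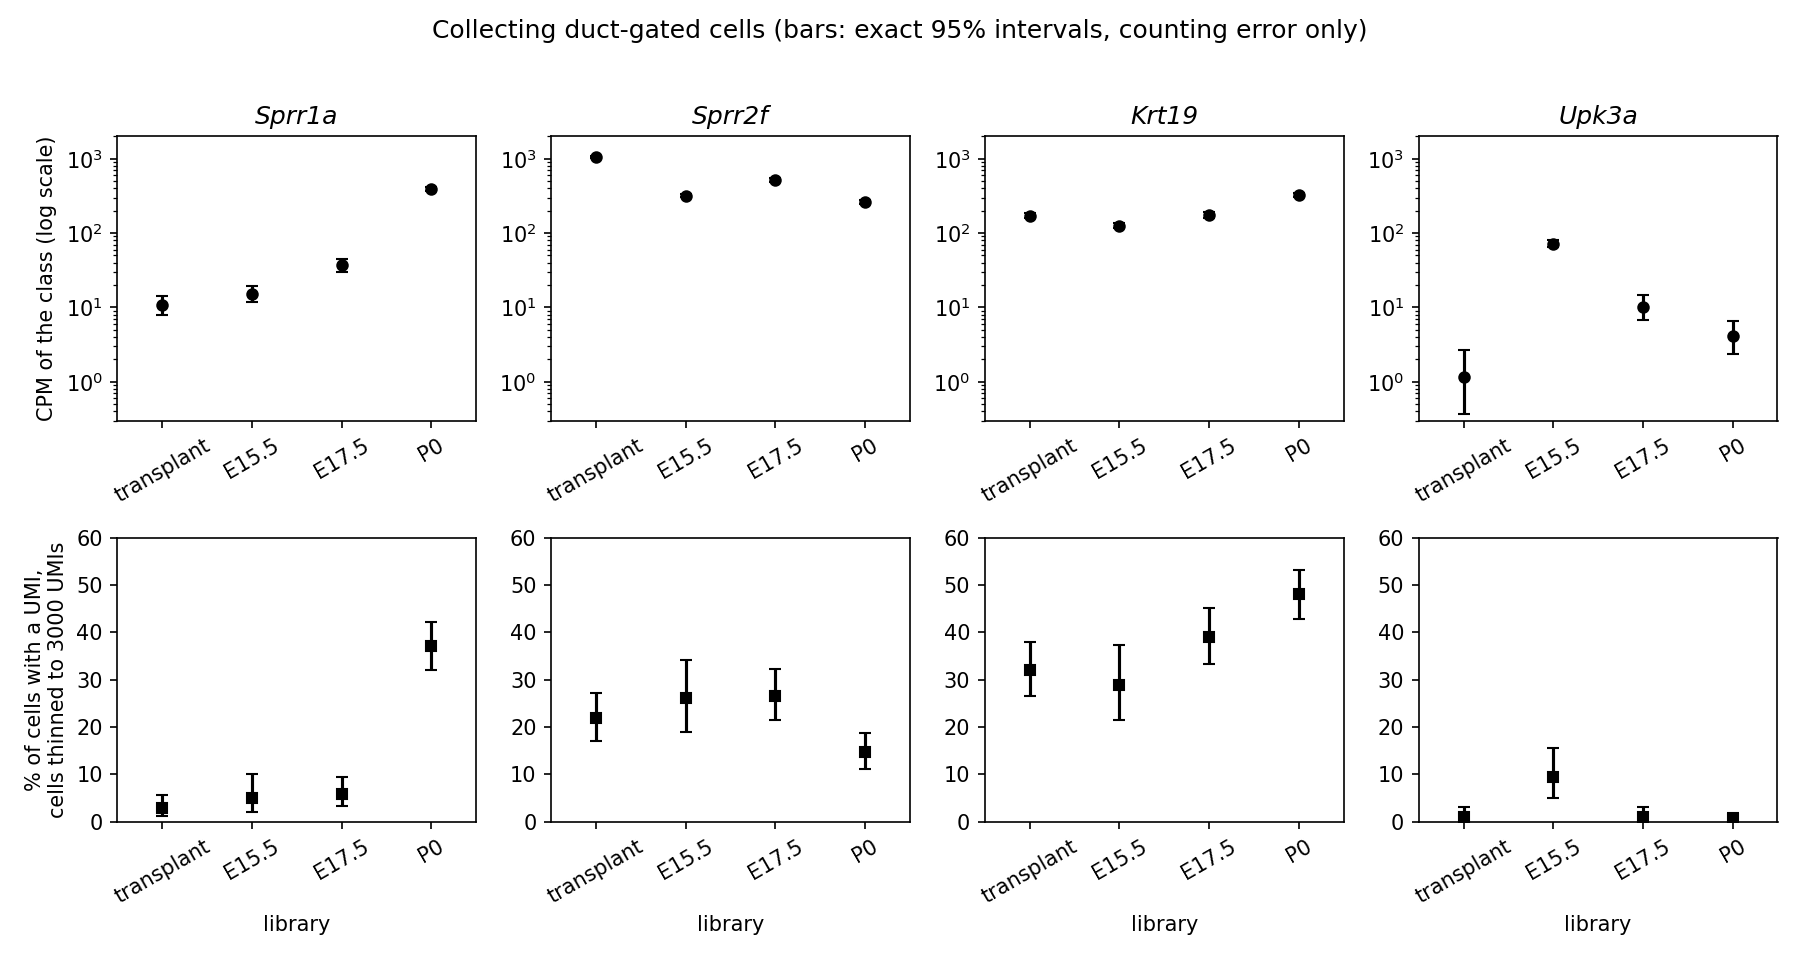
Levels of Sprr1a, Sprr2f, Krt19 and Upk3a (CPM, log scale) in collecting duct-gated cells of the 4 libraries, with exact 95% Poisson intervals. Sprr1a stands apart at P0 (393 CPM), Upk3a at E15.5 (71.8 CPM) and Sprr2f in the transplant (1047 CPM).

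Sprr1a was higher in the collecting duct at birth than at E15.5, by an amount that depended on how the cells were classed. It had 393 CPM (374 to 412) at P0 and 15.3 CPM (12.0 to 19.3) at E15.5, a 25.7-fold difference (20.2 to 33.0). UMIs were in 178 of 389 cells at P0 and in 20 of 140 at E15.5, and after thinning in 37.1% (32.2 to 42.2) and 5.07% (2.06 to 10.2), although E15.5 cells were sequenced more deeply. Krt19 was 2.56-fold higher at P0 (2.32 to 2.82), Sprr2f was at 0.836 of its E15.5 level (0.773 to 0.905), and Upk3a was 17.5-fold lower (10.8 to 30.4). Of the 4 members with enough UMIs, 2 were at least 2-fold higher and 1 lower, against 6.85% and 18.4% of all genes; Sprr1a was chosen from this contrast.

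The median of all genes stood at -0.34 on the log2 scale between P0 and E15.5. Relative to that shift the log2 ratios were 5.02 for Sprr1a, 1.69 for Krt19 and -3.79 for Upk3a, and that of Sprr2f turned from -0.26 to 0.08, and it was also positive, 0.11, with at most 10% mitochondrial UMIs. When all cells were thinned before gating, the Sprr1a log2 ratio was 1.59, and with classes from clusters it was 2.06, against 4.68 as gated. Krt19 did not reach 2-fold in either setting, at 0.24 and 0.73.

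The duct cells with Sprr1a differed between the 2 ages in the other members they carried. At E15.5, 13 of the 20 Sprr1a-positive duct cells were among the 25 cells with a Upk3a UMI, and those 25 held 59 of the 71 Sprr1a UMIs. At P0, Upk3a UMIs were in 3 of 389 duct cells. P0 duct cells with a Sprr1a UMI had 3523 CPM of Aqp2, against 3151 CPM in those without, and Krt5 was at 0 in both. They had 406 against 242 CPM of Krt19, 305 against 227 CPM of Sprr2f, 4198 against 2592 CPM of the tight junction gene Cldn4, and 3307 against 2116 CPM of Krt8.

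Stress and injury genes were also higher at P0. The 15 genes of a dissociation stress list summed to 12970 CPM at P0 and 3961 CPM at E15.5 in collecting duct-gated cells, with 12 of 15 at least 2-fold higher against 6.85% of all genes, and 13 injury genes summed to 3407 CPM at P0 and 1454 CPM at E15.5. Atf3, a stress-induced transcription factor gene, was 25.4-fold higher at P0 (22.5 to 28.8), and Gdf15, a stress-induced cytokine gene, 143-fold (95.4 to 227). Within P0, duct cells with a Sprr1a UMI had a stress sum of 12470 CPM and those without 13460 CPM. They had 1694 against 1300 CPM of Atf3, 721 against 701 CPM of Gdf15 and 112.7 against 52.3 CPM of the injury gene Plaur. In the other libraries the stress sum was higher in duct cells with a Sprr1a UMI. It was 10170 against 8363 CPM in the transplant, 4384 against 3882 CPM at E15.5 and 19230 against 16170 CPM at E17.5. Over all duct cells of E17.5 the stress sum was 16600 CPM and Sprr1a was at 36.7 CPM. The part of stress in the Sprr1a level was not tested. Of 11 regulators with enough UMIs, 5 were at least 2-fold higher at P0 and 3 at least 2-fold lower, against 6.85% and 18.4% of all genes, with Klf4 at 7.33-fold (5.95 to 9.11) and Klf5 at 5.65-fold (5.11 to 6.25), both factors of epithelial differentiation. Splitting duct cells by Sprr1a was chosen after seeing the data.

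At E17.5, Sprr1a was 2.40-fold above E15.5 (1.75 to 3.29) in collecting duct-gated cells, a direction that did not hold after thinning, when the log2 ratio was -1.51, or with classes from clusters, at -0.64. Of the 5 members with enough UMIs, 1 was at least 2-fold higher and 1 lower, against 5.23% and 7.26% of all genes. Sprr2f was 1.64-fold higher (1.52 to 1.76), Krt19 1.38-fold (1.22 to 1.56), and Upk1a stood at 1.53 (0.583 to 3.97). Upk3a was 7.06-fold lower (4.80 to 10.8), with 25 of its 28 UMIs at E17.5 in 1 cell. This comparison and that of P0 share the E15.5 library.

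Upk3a in collecting duct-gated cells was a feature of E15.5. It had 71.8 CPM there, against 9.58 CPM in all other E15.5 cells, and 1.14, 10.2 and 4.10 CPM in collecting duct-gated cells of the transplant, E17.5 and P0. The 333 UMIs at E15.5 lay in 25 of 140 cells, and 5 cells held 241 of them. Of these 140 cells, 53 lay in the cluster named urothelium, and whether the 25 were among them was not tested. The 25 cells had 805 CPM of Sprr2f against 197 CPM in the other 115, 412 against 55.9 CPM of Krt19, 165 against 4.57 CPM of the urothelium marker Fxyd3, and 156 against 61.6 CPM of the duct marker Wnt7b. Aqp2 was at 305 against 154 CPM and Krt5 at 0 in both. Urothelium-gated cells of E15.5 had 381 UMIs of the partner Upk1b beside 625 of Upk3a, against 12 beside 333 in collecting duct-gated cells.

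In the transplant the collecting duct carried much Sprr2f and little Sprr1a. Sprr1a had 10.7 CPM (47 UMIs) in the transplant and 393 CPM (1627 UMIs) at P0, a level 36.5-fold lower (27.4 to 49.9). Sprr2f was 3.94-fold higher in the transplant than at P0 (3.69 to 4.22), with 1795 of its 4580 UMIs in 5 cells. Krt19 was at 0.532 of the P0 level (0.486 to 0.582), Upk3a was 3.59-fold lower (1.27 to 12.4; 5 against 17 UMIs), and Upk1a was 5.01-fold higher (2.20 to 13.3; 37 against 7 UMIs). Of the 5 members with enough UMIs, 2 were at least 2-fold higher and 2 lower, against 26.4% and 7.84% of all genes.

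The median of all genes was at 0.50 on the log2 scale between transplant and P0. Relative to it, the log2 ratios were -5.69 for Sprr1a, 1.48 for Sprr2f, -1.41 for Krt19, -2.34 for Upk3a and 1.82 for Upk1a. Most transplant cells of this gate lay in clusters named distal tubule or intercalated, so the gate spans several clusters there, and strain, site and length of growth differ between the libraries. The stress sum was 8544 CPM in the transplant and 12970 CPM at P0. Against E17.5, the library nearest in strain label, the transplant had 2.02-fold more Sprr2f (1.90 to 2.14), 3.41-fold less Sprr1a (2.39 to 4.93) and a Krt19 ratio of 0.986 (0.879 to 1.11), with the median of all genes at 0.20 on the log2 scale.

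Outside urothelium and collecting duct, Upk1a had a second site in the loop of Henle gate of the transplant, a class defined by Slc12a1 and Umod. Loop-gated cells had 27.4 CPM (23.6 to 31.7) in the transplant and 2.13 CPM at P0, a 12.9-fold difference (7.02 to 26.2), and 3.20 and 4.04 CPM at E15.5 and E17.5. UMIs were in 129 of 506 transplant cells, at low level in each, and after thinning in 6.25% (4.16 to 8.96), against 0.634% (0.131 to 1.84) at P0 and 0 of 596 thinned endothelium-gated transplant cells. At E17.5 the thinned share of loop-gated cells was 3.09% (1.01 to 7.055), an interval that overlaps that of the transplant. At E15.5 it was 0 of 16 cells. The loop-gated transplant cells held 58.0% of the Upk1a UMIs of the transplant. Its partner Upk2 and the other tetraspanin uroplakin Upk1b had 0 UMIs in loop-gated cells of both libraries.

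Of the 6 members with enough UMIs in loop-gated cells, 5 were at least 2-fold higher in the transplant and 0 at least 2-fold lower, against 16.9% and 4.73% of all genes. Krt19 had 123 CPM in the transplant and 33.1 CPM at P0 (3.72-fold, 3.15 to 4.41), Psca 15.8 and 5.81 CPM (2.72-fold, 1.80 to 4.23), Ly6d 6.03 and 0.968 CPM (6.22-fold, 2.46 to 20.2), and Sprr2f 7.53 and 3.68 CPM (2.05-fold, 1.19 to 3.68). After thinning, Sprr2f UMIs were in 2.55% of loop-gated and 3.86% of endothelium-gated transplant cells. Its level in loop-gated cells therefore does not stand above that background. Sprr1a was similar in the transplant and at P0, at 14.5 and 15.7 CPM, with a ratio of 0.922 (0.679 to 1.26). The median of all genes in this comparison was 0.36 on the log2 scale, and the comparison was added after seeing the data.

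**Figure D4:**
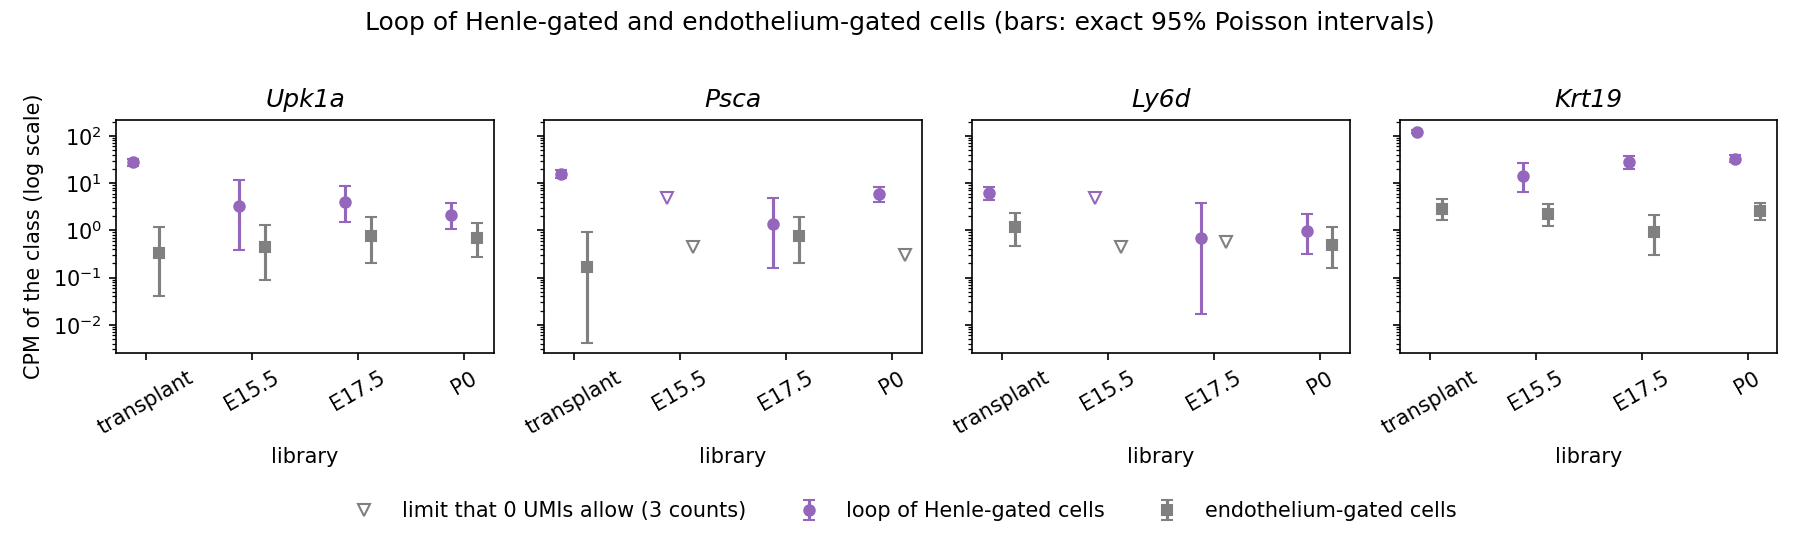
Levels of Upk1a, Psca, Ly6d and Krt19 (CPM, log scale) in loop of Henle-gated and endothelium-gated cells of the 4 libraries. Bars are exact 95% Poisson intervals. A class with 0 UMIs of a gene is drawn at the limit that a count of 0 allows. Upk1a has 27.4 CPM in loop-gated cells of the transplant and 2.13 CPM in those of P0.

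Most Ly6d UMIs of the transplant lay in cells that joined no class. Of 263 UMIs in 83 cells, 169 were in ungated cells, 40 in loop-gated cells and 29 in 1 leukocyte-gated cell. Cells that also had a UMI of Cd79a, a B cell receptor gene, held 178 of the 263, the 29 included. Cd79a was not limited to leukocytes in these libraries: 78 of 243 ureteric tip-gated cells of P0 had a UMI of it, and 51.5% of the Cd79a UMIs of P0 lay there. At P0, 12 of 596 Ly6d UMIs were in cells with a Cd79a UMI. Sprr1a outside the 2 main classes had 38.4 CPM in early nephron-gated cells of the transplant, 17.5 CPM in those of P0 and 70.0 CPM in intercalated-gated cells of P0.

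The genes whose pattern was most like each member were named by the Pearson r of log2(CPM + 10) over 48 class sums of at least 20 cells, among 14768 genes. Upk1b and Upk2 were most like the basal keratin genes, of which Krt5 is a gate marker, Upk1b like Krt14 and Krt5 (r = 0.992 each) and Upk2 like Krt5 (0.996) and Krt14 (0.995). Upk1a was most like Sptssb (0.912), Upk3b (0.904) and Rab27b (0.894), and Psca like Sptssb (0.924), Anxa8 (0.904) and Upk1a (0.892). Upk3a was most like Ldoc1 (0.973), Tbx3os2 (0.971) and Adh7 (0.97). These values rest on the single urothelium sum of E15.5, the one with 20 cells, and the points share libraries and depth. With sums of at least 10 cells, which take in urothelium of E17.5 and P0 and were added after seeing the data, no basal keratin was among the 3 nearest: Upk1b was most like Upk2 (0.985), Trp63 (0.98) and Msx2 (0.973), Upk2 like Aldh3b2 (0.988), Upk1b (0.985) and Sptssb (0.978), and Upk3a like Upk1b (0.968), Upk2 (0.967) and Foxa1 (0.962). Sprr2f was most like the collecting duct genes Fxyd4 (0.901) and Aqp4 (0.892) and the transcription factor gene Elf5 (0.876). Sprr1a was most like Krt19 (0.867), Mpzl3 (0.853) and Fam46b (0.835), and Krt19 like the envelope gene Ppl (0.901), Sfn (0.897) and Mpzl3 (0.894). Ly6d was most like the T cell receptor gene Trbc2 (0.899), the chemokine gene Ccl8 (0.893) and the lymphocyte receptor gene Il7r (0.891), over sums that leave out the 2 classes where Ly6d was highest, urothelium of P0 and E17.5. With these included it was most like Adam28 (0.957), Syt8 (0.95) and Urah (0.948).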

How the data were processed

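UMI counts per gene and cell, as deposited by the authors in filtered matrices, were used without further normalization. They were made with Cell Ranger 3.1.0 on GRCm38, per the submitters' processing notes, while 3.0.2 is written in 2 of the 4 matrices (E15.5, P0), per the file headers. A matrix joining 3 of the libraries was not used. The members and gene lists were chosen with earlier results of these data known.

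Barcodes under 500 genes or over 20% mitochondrial UMIs were dropped, and scrublet (in scanpy 1.11.5, Python 3.11.15) removed doublets at 0.8% per 1000 cells. A cell joined a class with at least 3 distinct markers of it and a score at least 1.25 times that of the next class. Counts were summed per class and library. Intervals were exact Poisson (levels), Clopper-Pearson (shares) and conditional binomial (ratios) at 95%, from scipy 1.17.1. A gene at 0 was set to 3 UMIs for bounds. With 1 library per group no p was computed, and members were counted past 2-fold where both sides had at least 20 UMIs together. The ratio step was tested on simulated data. Clusters (python-igraph 0.11.9) served as an alternative. For shares, cells were thinned to 3000 UMIs. All 9 members are named; for each, the 3 most like genes, and of each list genes with enough UMIs, mainly the 2 highest and 2 lowest ratios. Aqp2, Krt5, Fxyd3, Wnt7b, Cd79a, Gdf15 in urothelium and Ly6e in the transplant stand outside that rule and were chosen after their values were seen.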

Additional observations from a re-analysis of the deposited data

How the results depend on the processing

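No paired analysis was possible because each group is 1 library. Of the counts and shares, 108 settings stayed close to the value reported and 20 moved; of the single-member ratios, 302 stayed close, 144 moved and 6 reversed, where only ratios past 2-fold as reported could count as reversed. Smaller ratios that changed sign, such as those of Sprr2f at P0, are among those that moved. The urothelium-gated share moved without doublet removal to 0.0604% (transplant), 0.526% (E17.5) and 0.494% (P0), after thinning to 0.240% (E15.5), and with classes from clusters to 5.05% (E15.5) and 0.501% (E17.5). Members at least 2-fold higher in collecting duct than in all other cells numbered 4 in the transplant after thinning and 6 at E15.5 with clusters. Members higher in urothelium than in collecting duct numbered 3 at E15.5 with clusters, and 5 at P0 with at most 10% mitochondrial UMIs, without the 1 cell or without the 5 cells with the most UMIs. In the collecting duct, P0 over E15.5 had 1 after thinning, with clusters and as a mean over cells. E17.5 over E15.5 had 0 after thinning, 0 with clusters and 2 as a mean over cells, and transplant over P0 had 1 after thinning and 1 with clusters. Reversed log2 ratios with clusters, urothelium over collecting duct at E15.5, were -0.68 for Upk3a, -0.68 for Sprr1a and -0.37 for Krt19. At E17.5 that of Sprr2f after thinning was 0.06, from a bound on 0 UMIs. Sprr1a in the collecting duct, E17.5 over E15.5, was -1.51 after thinning and -0.64 with clusters. Thinning leaves fewer UMIs and clusters hold other cells than the gate; the cause of each change was not tested further. With 12 to 20 urothelium-gated cells a library, few cells set each level.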

Other observations

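Of 13 other genes of the Ly6 family, 5 had enough UMIs at E15.5, and 1 was at least 2-fold higher and 3 at least 2-fold lower in urothelium-gated than in collecting duct-gated cells, against 6.97% and 13.6% of all genes. The one higher was Lypd2, with 34.8 CPM in urothelium-gated and 5.82 CPM in collecting duct-gated cells (5.99-fold, 3.33 to 10.7). Ly6a and Ly6e, broadly expressed surface protein genes of the Ly6 family that interferon is known to induce, were lower in urothelium-gated cells. At E15.5 Ly6a had 62.7 CPM in urothelium-gated and 181 CPM in collecting duct-gated cells, a ratio of 0.346 (0.251 to 0.468), and Ly6e 52.9 and 144 CPM, a ratio of 0.368 (0.258 to 0.511). In collecting duct-gated cells Ly6a had 2218 CPM in the transplant and 179 CPM at P0, a 12.4-fold difference (11.5 to 13.3), and Ly6e 2051 and 372 CPM, 5.51-fold (5.22 to 5.82). Of the 8 other Ly6 family genes with enough UMIs, 5 were at least 2-fold higher in the transplant and 1 at least 2-fold lower, against 26.4% and 7.84% of all genes.

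S100a6, a calcium-binding protein gene on the injury list, was among the genes that stood highest in urothelium-gated cells. It had 3310, 14160 and 7981 CPM there at E15.5, E17.5 and P0, against 129, 65.7 and 242 CPM in collecting duct-gated cells. Gdf15, on the same list, had 0 UMIs in urothelium-gated cells of all 3 ages and 711 CPM in collecting duct-gated cells at P0, where it was at least 43.8-fold lower in urothelium.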
